A study of Rattus norvegicus with 12 samples.

Results

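Pim kinases, Socs proteins and the STAT genes that drive them were measured in the colon of rats after neonatal maternal separation (NMS) with and without the probiotic mixture VSL#3. Of 10 genes listed by symbol (Pim1, Pim2, Pim3, Socs1, Socs2, Socs3, Cish, Stat3, Stat5a and Jak3), 9 had a probe named for them, and Pim2 had none by symbol, synonym or accession. These 9 genes had 10 of the 30367 probes of the array, Cish having 2. The genes were chosen by their roles together with measured values of these arrays, the differences of Group M from Group C and of Group D from Group M, so the values are given as a description. The samples were from male Wistar rats, all subjected to colorectal distension (CRD), with 1 rat per array. Group C held 4 normally handled rats on placebo, Group M 4 NMS rats on placebo and Group D 4 NMS rats on VSL#3, a mixture of live bacteria. Pups of Groups M and D were taken from the dam for 180 min a day from day 2 to day 14, gavage with placebo or VSL#3 ran from day 3 to day 60, and the colon was taken at the end.

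A cytokine that binds its receptor activates Janus kinases (JAKs), which phosphorylate STAT transcription factors, and the STATs then move to the nucleus and induce target genes. Among the targets are Socs1, Socs2, Socs3 and Cish, whose products bind the receptor or the JAK and shut the signal down, and the Pim kinases, serine and threonine kinases that are regulated mainly through how much of them is made and that favour survival and growth of cells. In the intestine STAT3 acts downstream of the IL-6 and IL-10 families in epithelium and immune cells, and Jak3 serves the cytokine receptors that share the common gamma chain, mainly in lymphocytes.

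The sequences shown first are the probes of Socs1, Socs2 and Socs3 and 1 of the 2 probes of Cish, since each value is the brightness of a probe of 60 bases. In Socs3 the capitals mark the last triplet of the probe, a stop codon and the only one in that reading frame. Positions are those of the rn4 build, at chr10:4820384-4820443 for Socs1, chr7:32605827-32605886 for Socs2, chr10:107958636-107958695 for Socs3 and chr8:112544581-112544640 for the Cish probe printed here.
Socs1: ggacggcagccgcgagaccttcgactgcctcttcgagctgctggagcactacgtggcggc
Socs2: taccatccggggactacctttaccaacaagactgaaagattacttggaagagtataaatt
Socs3: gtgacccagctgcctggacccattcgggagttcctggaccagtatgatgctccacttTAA
Cish: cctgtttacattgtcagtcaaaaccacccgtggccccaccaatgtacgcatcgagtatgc
The other Cish probe, at chr8:112545330-112545389, is not printed; it had the higher mean signal, and the Cish values below are those of that probe unless stated. The remaining probes were at chr20:7821741-7821800 for Pim1, chr7:127171939-127171998 for Pim3, chr10:89821145-89821204 for Stat3, chr10:89819609-89819668 for Stat5a and chr16:18889379-18889438 for Jak3. The Stat3 and Stat5a probes lie on the same chromosome with 1476 bases between them.

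The letters TTCNNNGAA, the palindromic core of sites that STAT proteins bind (the same on both strands), were searched in the promoters of the list, from 250 bases before to 50 after the start given by RefSeq (GRCr8 build). Of the 10 genes 8 had a promoter there, Socs2 and Jak3 having none. Cish had 4 such stretches and Socs1 had 1, and the other 6 promoters (Pim1, Pim2, Pim3, Socs3, Stat3 and Stat5a) had 0. Of all 33469 promoters listed 8.87% held at least 1 and 0.00598%, that is 2 promoters, held 4 or more. The form with 1 more N in the middle was in 0 of the 8 and in 7.28% of all promoters. The 250 bases before the start are printed for the Cish and Socs1 genes, both on the + strand, with each stretch in capitals, at chr8:116850719-116850968 and chr10:5389324-5389573.
Cish: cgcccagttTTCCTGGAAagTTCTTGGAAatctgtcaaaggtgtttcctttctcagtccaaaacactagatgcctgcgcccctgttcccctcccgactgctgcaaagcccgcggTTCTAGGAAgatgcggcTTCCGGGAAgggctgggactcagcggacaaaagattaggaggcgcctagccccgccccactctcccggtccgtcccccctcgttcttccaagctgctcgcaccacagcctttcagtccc
Socs1: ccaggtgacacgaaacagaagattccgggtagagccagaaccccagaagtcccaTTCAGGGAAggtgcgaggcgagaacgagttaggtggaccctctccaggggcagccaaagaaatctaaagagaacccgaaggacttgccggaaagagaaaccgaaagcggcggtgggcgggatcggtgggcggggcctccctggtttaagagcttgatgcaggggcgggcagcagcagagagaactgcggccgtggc
In Cish the first bases of the 4 stretches lie 241, 230, 136 and 119 bases before the start, as 2 pairs with 2 and 8 bases between their members. In Socs1 the single stretch begins 196 bases before the start. A match of letters is not a measured binding site, and no factor was mapped in these samples. A count of 0 holds for the searched window alone. Sequence outside it, or around any other start of the same gene, was not searched.

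Signal is given throughout as a log2 value with the 75th percentile of the array set to 0, so a value of 0 is the signal that 75% of the spots lie below, and a difference of 1 is 2-fold. A level is set against the same probe on other arrays alone. The 9 genes were well above background on all 12 arrays, except Socs1 on 10, with 3 of 4 arrays in Group C, 4 of 4 in Group M and 3 of 4 in Group D. As in the methods of the study, the array of rat D12 was left out of the comparisons, giving 11 arrays, for which no reason is stated; values with all 12 arrays are given beside. Groups C and M shared 1 slide and Group D had the other, so slide and group cannot be told apart in comparisons with Group D. On the shared slide Group C filled row 1 and Group M row 2, so row and group cannot be told apart in Group M vs Group C.

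Rats of 1 group differed in markers of immune cells. The mean log2 level of 3 B cell markers (Cd79b, Ms4a1 and Cr2) was -6.30 to -5.07 in rats C1, C3 and C4 and -0.91 in C2. Only 1 of the 3 was well above background on all 12 arrays, and Ms4a1 was on 8, so background limits the low levels. The mean B cell level was -6.17 in M6 but -1.06 to -0.03 in M5, M7 and M8, and -7.06 to -4.21 in D9 to D11 but 0.29 in D12. The 7 T cell markers (Cd3e and Cd3d the first) followed the same split, from -3.99 to -1.63 in Group C, -4.20 to -1.77 in Group M and -4.15 to -3.47 in D9 to D11, with -0.81 in D12. The 5 measured neutrophil markers, 2 of them well above background on all 12 arrays and 1 on none, spanned -6.68 to -5.88 in Group C. They spanned -6.25 to -3.69 in Group M with M7 highest, and -6.37 to -6.20 in D9 to D11. S100a8 was 0.16 in M7 and -5.34 to -2.79 in the other 11 rats. For the 7 monocyte and macrophage markers the ranges were -0.58 to -0.12, -0.54 to 0.21 and -0.75 to -0.58, and for the 5 mast cell markers -4.47 to -3.81, -3.54 to -3.35 and -3.72 to -3.27. The 8 markers of colon epithelium were well above background on every array, at 2.83 to 3.71 in Group C, 2.88 to 3.44 in Group M and 3.22 to 3.77 in D9 to D11. Those of smooth muscle spanned 3.65 to 4.39 over Groups C and M and 3.76 to 4.13 in D9 to D11. Those of endothelium spanned -1.62 to -1.37 over Groups C and M and -1.74 to -1.57 in D9 to D11. For enteric neurons and glia these ranges were -3.39 to -2.96 and -3.03 to -2.84. Immediate early genes spanned -0.59 to 0.01 in Group C, -0.18 to 0.78 in Group M and -0.58 to 0.51 in D9 to D11. The criterion of the study's methods, p up to 0.05 unadjusted with 2-fold, called 2 of the mast cell and 1 of the epithelial markers in Group M vs Group C. Of all probes it called 2.33%. In pieces of whole colon, fewer cells of a type and less RNA per cell cannot be told apart.

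**Figure D1:**
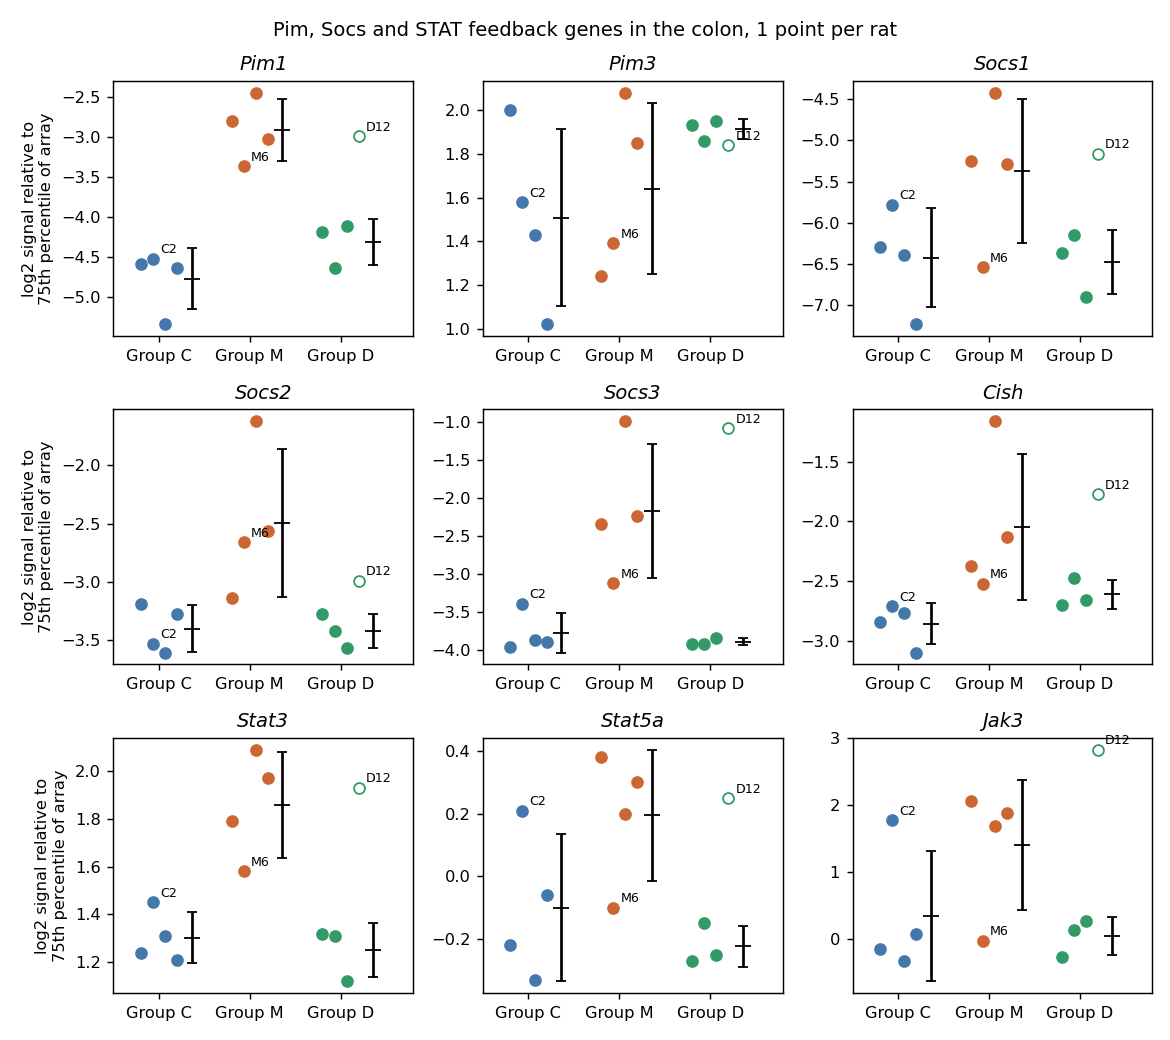
Log2 signal of the 9 measured genes relative to the 75th percentile of each array, 1 point per rat, in Groups C, M and D; the bar beside each group is the mean ± SD without rat D12, whose point is open, and rats C2, M6 and D12 are named. All Group M points of Pim1, Socs2, Socs3, Cish and Stat3 lie above all Group C points, and D12 lies above D9 to D11 in 8 of the 9 genes.

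Of the Pim kinases, Pim1 differed most between the groups and Pim3 little. Pim1, which promotes survival and proliferation and is a classic target of STAT3 and STAT5, had log2 signals of -4.59, -4.52, -5.34 and -4.64 in rats C1 to C4. In rats M5 to M8 they were -2.80, -3.37, -2.45 and -3.03, and in D9 to D11 they were -4.19, -4.64 and -4.11. All 4 signals of Group M were thus above those of Group C and of D9 to D11, and Groups C and D overlapped. The means were -4.77 ± 0.38 (SD, n = 4) in Group C, -2.91 ± 0.38 (SD, n = 4) in Group M and -4.32 ± 0.29 (SD, n = 3) in Group D. Group M exceeded Group C by a log2 difference of 1.86 (SE 0.24), or 3.64-fold, and Group D was below Group M by 2.65-fold, a log2 difference of -1.40 (SE 0.26). Between Groups D and C the difference was 0.46, with a 95% interval from -0.11 to 1.03. Pim1 was read from 1 spot per array. Rat D12 had -2.99, within the range of Group M, and with it the difference of Group D from Group M was -1.07 and from Group C 0.79.

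Pim3, a related kinase linked to growth and energy metabolism, had log2 signals of 2.00, 1.58, 1.43 and 1.02 in Group C. They were 1.24, 1.39, 2.08 and 1.85 in Group M, and 1.93, 1.86 and 1.95 in D9 to D11 with 1.84 in D12. All 3 groups overlapped. The difference of Group M from Group C was 0.13, with a 95% interval from -0.37 to 0.64, and Pim3 was the gene of the list in which D12 did not stand above the other rats of its group.

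Of the Socs genes, Socs3 had the widest differences. Socs3, which blocks the gp130 receptors of the IL-6 family and the JAKs bound to them, had log2 signals of -3.96, -3.39, -3.87 and -3.89 in Group C. In Group M they were -2.35, -3.12, -0.99 and -2.24, and in D9 to D11 they were -3.92, -3.92 and -3.84. All rats of Group M lay above Group C and above D9 to D11, with M7 highest and M6 lowest, and D9 to D11 lay within the range of Group C. Means were -3.78 ± 0.26 (SD, n = 4), -2.18 ± 0.88 (SD, n = 4) and -3.89 ± 0.04 (SD, n = 3). The log2 difference was 1.60 (SE 0.36), or 3.04-fold, for Group M over Group C and -1.72 (SE 0.39), or 3.29-fold lower, for Group D below Group M. Rat D12, at -1.08, was next to M7, the highest rat of Group M, and with it the difference of Group D from Group M was -1.02 and its SD 1.41 (n = 4).

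Socs2, a regulator of growth hormone signalling, had log2 signals of -3.19, -3.53, -3.61 and -3.28 in Group C, and of -3.14, -2.66, -1.62 and -2.56 in Group M. In D9 to D11 it had -3.28, -3.42 and -3.57, and -2.99 in D12. Group M stood above Group C and above D9 to D11, with M5 at -3.14 next to C1 at -3.19, and D12 stood within Group M. The log2 differences were 0.91 (SE 0.27) for Group M vs Group C, -0.93 (SE 0.29) for Group D vs Group M and -0.02 for Group D vs Group C, with a 95% interval from -0.67 to 0.63.

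Socs1, which inhibits JAKs directly and restrains interferon signalling, had log2 signals of -6.29, -5.78, -6.39 and -7.23 in Group C and -5.25, -6.54, -4.42 and -5.29 in Group M. D9 to D11 had -6.36, -6.15 and -6.90, and D12 had -5.16. The groups overlapped through rat M6, whose signal lay within Group C. The log2 difference was 1.05 (SE 0.43) between Groups M and C and -1.10 (SE 0.47) between Groups D and M, and with the normexp background correction they were 0.34 and -0.34.

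Cish, which restrains STAT5 signalling and carried the 4 stretches printed above, had log2 signals of -2.84, -2.71, -2.77 and -3.10 in Group C and -2.37, -2.52, -1.16 and -2.13 in Group M. They were -2.70, -2.47 and -2.66 in D9 to D11 and -1.77 in D12. Group M lay above Group C. D9 to D11 were above every rat of Group C only narrowly, with D9 at -2.70 next to C2 at -2.71. They overlapped Group M, with D10 at -2.47 above M6 at -2.52. The log2 differences were 0.81 (SE 0.26) for Group M vs Group C, -0.57 (SE 0.28) for Group D vs Group M and 0.24 (SE 0.28) for Group D vs Group C. The Cish probe printed above gave 0.52 (SE 0.24), -0.52 (SE 0.26) and 0.00 (SE 0.26), with all groups overlapping, so the separation of the groups was not seen by both probes.

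Among the STATs, Stat3, the mediator of IL-6 and IL-10 signals, had log2 signals of 1.24, 1.45, 1.31 and 1.21 in Group C and 1.79, 1.58, 2.09 and 1.97 in Group M. They were 1.32, 1.31 and 1.12 in D9 to D11 and 1.93 in D12. Group M lay above Group C and above D9 to D11, by a difference smaller than those of Pim1 and Socs3 but with the smallest SE. It came to 0.55 (SE 0.12), or 1.47-fold, for Group M over Group C, and to -0.61 (SE 0.13), or 1.52-fold lower, for Group D below Group M. For Group D vs Group C it was -0.05, with a 95% interval from -0.34 to 0.24.

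Stat5a, which carries signals of prolactin, growth hormone and several interleukins, had log2 signals of -0.22, 0.21, -0.33 and -0.06 in Group C and 0.38, -0.10, 0.20 and 0.30 in Group M. D9 to D11 had -0.27, -0.15 and -0.25, below every rat of Group M, and D12 had 0.25. The log2 differences were 0.29 (SE 0.14), with Groups C and M overlapping, and -0.42 (SE 0.15) in Group D vs Group M.

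Jak3 divided the rats within groups rather than the groups. Its log2 signals were -0.15, 1.78, -0.33 and 0.08 in Group C, 2.07, -0.02, 1.69 and 1.89 in Group M and -0.26, 0.14 and 0.28 in D9 to D11, with 2.83 in D12. Rats C2, M5, M7, M8 and D12 were high and the other 7 low, the same rats that were high in the B cell markers. Across groups the log2 difference was 1.07 (SE 0.54) for Group M vs Group C, where SDs were 0.97 and 0.96 (n = 4 each), and -1.36 (SE 0.58) for Group D vs Group M, or -0.66 with D12.

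Counted over the list, all 9 genes were higher in Group M than in Group C, where 47.4% of all probes were, with a median log2 difference of 0.91 against -0.014 for all probes. In 5 of the 9 (Pim1, Socs2, Socs3, Cish and Stat3) the lowest rat of Group M exceeded the highest of Group C, which held for 4.08% of probes. Limma called 1 gene, Pim1, (adjusted p up to 0.05 and 2-fold or more), against 0.168% of probes in either direction, and with all 12 arrays it called 0 against 0.0329%, with 5 genes at p up to 0.05 unadjusted, against 8.38% of probes. Over 11 arrays the last count was 6, against 9.86%. By the criterion of the study's methods (p up to 0.05 unadjusted, with 2-fold) the genes called were 2, Pim1 and Socs3, against 2.33% of probes. With 12 arrays it called 1, Pim1, against 1.56%. In Group D vs Group M 8 genes were lower and 1, Pim3, higher, where 46.7% of probes were lower, and the median was -0.93 against 0.022. In 5 (Pim1, Socs2, Socs3, Stat3 and Stat5a) D9 to D11 were below every rat of Group M, which held for 6.89% of probes. Limma called 0 genes against 0.125% of probes, 7 being lower at p up to 0.05 unadjusted against 9.85%, and the criterion of the methods called Pim1 and Socs3 against 2.65%. With 12 arrays it called Pim1 and not Socs3, against 0.948%. With D12 kept, 0 of the 9 were separate in Group D vs Group M, against 2.31%, and the median was -0.66. In Group D vs Group C 3 genes were higher and 6 lower, with a median of -0.05. Limma called 0 against 0.00659%, the criterion of the methods 0 against 0.366%, and p up to 0.05 unadjusted 0 against 5.98%. With D12, 8 were higher, where 46.6% of probes were, and the median was 0.39. The genes were listed with these differences known, so nothing is read from the counts, and both comparisons share the rats of Group M.

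**Figure D2:**
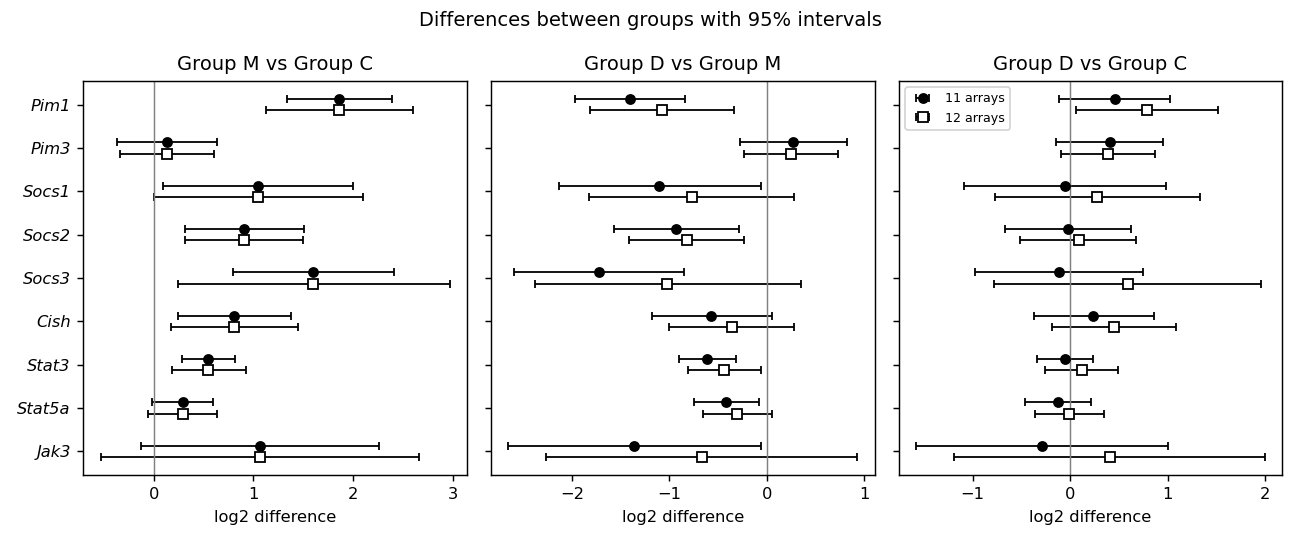
Log2 differences between groups for the 9 genes with their 95% intervals from the limma fits, for 11 arrays (filled circles, D12 left out) and 12 arrays (open squares). In Group D vs Group M the difference of Socs3 goes from -1.72 to -1.02 when D12 is kept, and in Group D vs Group C from -0.11 to 0.59.

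The order of rats within a group was shared by most of the genes. M7 was the highest rat of Group M in 7 of 9 genes and M6 the lowest in 7 of 9. C2 was the highest of Group C in 7 of 9, and D12 the highest of Group D in 8 of 9 and above every Group C rat in 8 of 9. The same counts over all probes were not made, so this order is not read as a trait of the list. Without rat M6 limma called 4 of the 9 (Pim1, Socs1, Socs3 and Jak3) in Group M vs Group C, and as many (4) when Group D was set against Group M. In the same fits 5.86% and 6.51% of all probes were called. Without C1, C3, C4, M5, M7, M8 or D11 in turn it called 0 in Group M vs Group C, and without C2, D9 or D10 it called 1. Of all probes 0.0132% to 0.0527% were called in the former fits and 0.214%, 0.0922% and 0.0757% in the latter. The log2 difference of Pim1 stayed between 1.20 and 2.01 over the settings tried.

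Set against the B cell markers, Jak3, Pim1 and Socs3 behaved differently. Rat C2 had a B cell level of -0.91, in the range of M5, M7 and M8, and its Pim1 signal of -4.52 was below all of Group M and next to the -4.59 of C1. Rat M6 had a B cell level of -6.17, in the range of C1, C3 and C4, and its Pim1 signal of -3.37 was above all of Group C. For Socs3 the signal of C2 was -3.39 and that of M6 -3.12, each between the low and the high rats. For Jak3 C2 had 1.78 and M6 -0.02, so each was among the rats of like B cell level and not of its own group. Rat D12 had the highest B cell level, 0.29. Its signals of Pim1 (-2.99), Socs3 (-1.08) and Jak3 (2.83) were all above those of D9 to D11, and that of Pim1 lay in the range of Group M. The part of immune cells in the differences between group means was not tested. Without C2 the Pim1 difference of Group M from Group C was 1.95 and that of Socs3 1.73, and without M6 they were 2.01 and 1.92.

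**Figure D3:**
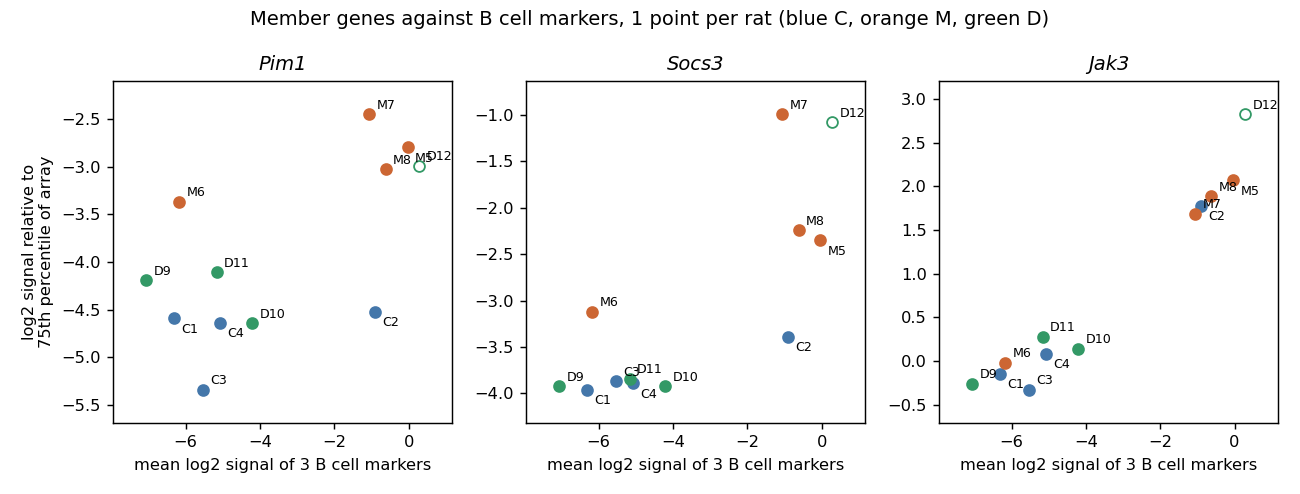
Log2 signal of Pim1, Socs3 and Jak3 (y axis, relative to the 75th percentile of the array) against the mean log2 signal of 3 B cell markers (x axis), 1 point per rat, Group C blue, Group M orange, Group D green, D12 open. In Jak3 the 5 rats of high B cell level form 1 cluster, while in Pim1 rat C2 lies with Group C and rat M6 above it. In all 3 genes D12 lies above D9 to D11, and in Pim1 within the range of Group M.

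The probes most like Pim1 over the 11 arrays, among 14017 probes of named genes well above background on every array, were Fv1 (Pearson's r = 0.96), Fgf7 (0.95), Bhlha15 (0.95), Srfbp1 (0.94) and Asgr2 (0.94). With D12 these were 0.97, 0.95, 0.87, 0.94 and 0.85. The probes most like Socs3 were Enpp3, Ipo5, Lmcd1, Hmox1 and Acsl4, each with r = 0.99 over 11 arrays and 0.84, 0.92, 0.77, 0.96 and 0.94 over 12. For Jak3, looked up after its values were seen, they were Laptm5, Spn, Pla2g2d, Ptprc and Ccr6, with r of 0.99 or above; Ptprc encodes CD45, found on leukocytes, and Ccr6 is a chemokine receptor of lymphocytes. These are the highest of many correlations over arrays that share the same group differences, and they are a description.

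The rest of the pathway was taken from 6 lists of 125 genes, of which 115 had a probe and 89 cleared background on all arrays of some group. Limma called 0 of 115 in each of the 3 comparisons. At p up to 0.05 unadjusted 30 were higher and 9 lower in Group M vs Group C, where 9.86% and 12.9% of all probes were. Between Groups D and M 12 were higher and 36 lower, against 11.8% and 9.85% of probes, and in Group D vs Group C 0 were higher and 7 lower, against 5.98% in both directions. The lowest adjusted p by limma was 0.0868 for Group M vs Group C, 0.051 in Group D vs Group M and 0.528 in Group D vs Group C. By the criterion of the methods 10 were higher and 1 lower in Group M vs Group C (2.33% of probes), 7 were lower in Group D vs Group M (2.65%) and 0 were called in Group D vs Group C (0.366%). Without rat M6, where 5.86% and 6.51% of all probes were called, limma called 18 of them between Groups M and C and 22 between Groups D and M. Without C2 it called 1 and 2, where 0.214% and 0.191% of all probes were called.

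Among 31 ligands 18 were higher and 13 lower in Group M vs Group C, with a median log2 difference of 0.11, and 4 met the criterion of the methods (Il6, Il10, Il21 and Il5). Il10, the anti-inflammatory cytokine that signals through Stat3, had log2 signals of -6.75, -5.29, -7.07 and -7.83 in Group C and -4.08, -5.60, -3.12 and -3.80 in Group M. In D9 to D11 it had -6.57, -6.57 and -7.41, and -4.01 in D12. M6 lay below C2, and the other rats of Group M lay above all of Group C. The difference was 2.58 (SE 0.60, adjusted p = 0.0961) for Group M over Group C and -2.70 (SE 0.65, adjusted p = 0.0867) for Group D below Group M, with 2 of 4 arrays of Group C and 1 of 3 of Group D well above background. Il5, the growth factor of eosinophils, was at -7.47 to -6.77 in Group C and -6.33 to -3.09 in Group M, a difference of 2.47 (SE 0.65, adjusted p = 0.106), with 1 array of Group C well above background. On none of D9 to D11 was it well above background, and its signal there was at least 5.71-fold lower than in Group M (adjusted p = 0.0809). Il6, the main ligand of gp130, was well above background on 0 arrays of Group C and 1 of Group M (adjusted p = 0.117). Its signal was -4.56 in M7 and -8.11 to -6.98 in the other rats of Group M, so no size is given for its difference. Il21 was well above background on 0 arrays of Group C, 1 of Group M and 0 of D9 to D11, and no size is given for it either. Csf2, a growth factor of granulocytes and macrophages, met the criterion of the methods in Group D vs Group M. It was well above background on 3 arrays of Group M and on none of D9 to D11, where it was lower (adjusted p = 0.112), and no size is given for its difference.

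Of 36 receptors 22 were higher and 14 lower in Group M vs Group C, with a median of 0.28, and 25 were lower in Group D vs Group M, with a median of -0.31. Osmr, the oncostatin M receptor that pairs with gp130, had log2 signals of -6.53, -5.62, -6.74 and -6.55 in Group C, -5.04, -5.49, -3.90 and -4.68 in Group M and -6.91, -6.96 and -7.43 in D9 to D11. Group M was above the others in every rat but for D12, at -4.96. The difference was 1.58 (SE 0.34, adjusted p = 0.0904) for Group M vs Group C and -2.32 (SE 0.37, adjusted p = 0.051) for Group D vs Group M, with 2 of 4 arrays of Group C and 1 of 3 of Group D well above background. Il6ra, the IL-6 receptor, met the criterion of the methods in Group M vs Group C, with 1.07 (SE 0.31). Prlr, the prolactin receptor and a user of Stat5a, was lower in Group M by the same criterion, with -1.65 (SE 0.52, adjusted p = 0.123), from -1.98 to -1.15 in Group C and -4.74 to -1.74 in Group M.

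The 7 other kinases and STATs had a median difference of 0.13 for Group M over Group C and -0.43 for Group D below Group M, where 7 of 7 were lower. Jak2, the JAK of the growth hormone and prolactin receptors, was higher in Group M by 0.56 (SE 0.18, adjusted p = 0.125) and lower in Group D than in Group M by -0.51. Stat4, which mediates IL-12 signals in T cells, had -3.59 in C2 and -6.40 in M6, while C1, C3 and C4 had -6.54 to -5.52 and M5, M7 and M8 -3.61 to -3.32, a difference of 1.29 (SE 0.80, adjusted p = 0.368). Like Jak3 it was at 1 level in C2, M5, M7 and M8 and at another in M6, C1, C3 and C4.

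Of 14 further negative regulators 9 were higher in Group M, with a median of 0.21 and 0 met the criterion of the methods. Socs5, another Socs protein, differed by 0.85 (SE 0.27, adjusted p = 0.125) between Groups M and C and by -0.98 (adjusted p = 0.118) between Groups D and M. Ptpn1, a phosphatase that acts on Jak2, differed by 0.66 (SE 0.18, adjusted p = 0.106) and -0.54 (adjusted p = 0.15).

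The 20 further STAT target genes had the highest median of the 6 lists in Group M vs Group C, 0.60, with 17 higher and 3 lower. Between Groups D and M it was -0.63, with 16 lower. Timp1, an inhibitor of metalloproteinases, had log2 signals of 0.15, 3.82, 1.12 and 0.47 in Group C and 5.20, 3.94, 6.78 and 5.52 in Group M. It had 0.62, 0.48 and 0.20 in D9 to D11 and 4.88 in D12. Groups C and M met between C2 at 3.82 and M6 at 3.94, and D9 to D11 were far below Group M. The difference was 3.97 (SE 0.79, adjusted p = 0.0868), or 15.7-fold, and -4.93 (SE 0.85, adjusted p = 0.0608), or 30.5-fold lower in Group D, and with D12 the second was -3.82. Il1rn, the antagonist of the IL-1 receptor, differed by 1.94 (SE 0.70, adjusted p = 0.149) and -1.88 (adjusted p = 0.189). Myc, a driver of growth, and Bcl3 and Hif1a also met the criterion of the methods in Group M vs Group C, with 1.38 (SE 0.29), 1.52 (SE 0.40) and 1.05 (SE 0.28). Bcl6, a transcriptional repressor of B and T cells, met it in Group D vs Group M with -1.25 (SE 0.34), as did Myc with -1.10 (SE 0.32). Of the 7 Pim substrates 3 were higher and 4 lower in Group M, with a median of -0.00, and 0 met either criterion. Eif4b, a translation factor, and Akt1s1, an inhibitor of mTORC1 also called PRAS40, were lower in Group M by -0.46 (SE 0.16, adjusted p = 0.142) and -0.33 (SE 0.12, adjusted p = 0.15).

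**Figure D4:**
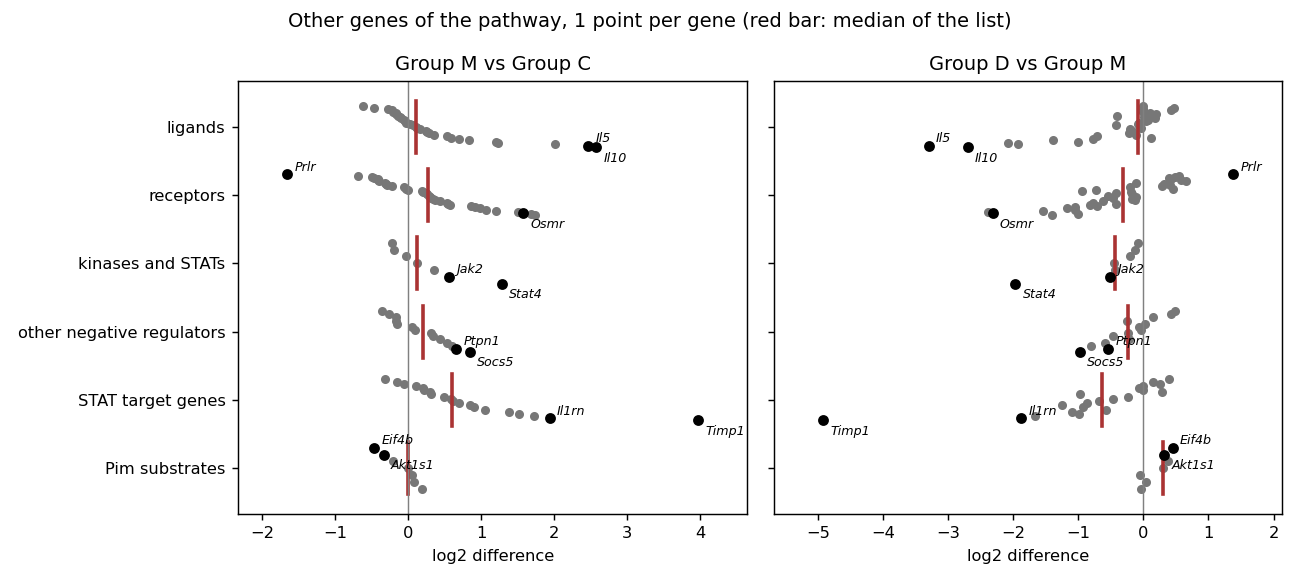
Log2 differences of the 115 measured genes of the pathway outside the list, 1 point per gene in 6 lists, for Group M vs Group C and Group D vs Group M, with the median of each list as a red bar and the 2 genes of each list with the largest Group M vs Group C difference, among those that cleared background on all arrays of a group, in black. STAT target genes have the highest median in Group M vs Group C, 0.60, and Timp1 lies farthest from 0 in both panels, at 3.97 and -4.93.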

How the data were processed

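Cy3-labelled colon RNA was put on 1 Agilent array per rat. Per the file headers, Feature Extraction 10.5 had subtracted the background and corrected spatial trends to give the deposited intensity values, on a linear scale. The authors' table holds log2 values of the same arrays, quantile normalized, and was used as an alternative. Control and outlier spots were left out, spots of a probe averaged, and the log2 of the 75th percentile of each array subtracted (30367 probes, 19 of them missing on at least 1 array; 75.5% to 77.5% of spots well above background, 0 saturated). The number of arrays limits the precision. The 3 groups were fitted in 1 model with limma 3.58.1 (R 4.3.3; 11 arrays) and Benjamini-Hochberg adjustment over all probes; a call needs an adjusted p of at most 0.05 and 2-fold. The criterion of the methods (analysis of variance with Tukey's comparison, unadjusted) was computed beside it. Scripts were tested on simulated data.

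Each gene is given by its probe with the highest mean signal. Named pathway genes are those called by limma, the 2 with the largest Group M vs Group C difference in each list that cleared background on all arrays of a group, and genes meeting the criterion of the methods. The members, the gene and marker lists and the tests were chosen with earlier results of these data known. Promoter sequences are those of RefSeq (GRCr8), matched by symbol for 8 of 10 genes. Some results are not reported here.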

Additional observations from a re-analysis of the deposited data

Results flagged for a closer look

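Of 60 sets of values, each from the 4 rats of 1 group, tested for a rat far from the others, 6 had one. Chance gives about 1 in 20 for a single set, but the sets share the same rats and are not independent, so the count is not set against it. Pim1 was -5.34 in C3 against -4.64 to -4.52 in the rest of Group C. Socs3 was -3.39 in C2 against -3.96 to -3.87 in the rest of Group C, and -1.08 in D12 against -3.92 to -3.84 in D9 to D11. The mean level of monocyte and macrophage markers was -0.12 in C2 against -0.58 to -0.51, and that of T cell markers -1.63 in C2 against -3.99 to -3.62. The mean level of B cell markers was -6.17 in M6 against -1.06 to -0.03 in the rest of Group M.

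The array of rat D12, which the comparisons do not use, exceeded the mean of Group C by a log2 difference of 1.78 for Pim1, 1.26 for Socs1, 2.70 for Socs3, 1.08 for Cish and 2.49 for Jak3. Its B cell and T cell marker levels, 0.29 and -0.81, were the highest of the 12 rats. So was its level of immediate early genes, 1.15, while that of colon epithelium markers, 2.62, was the lowest. Its neutrophil level of -5.56 and its monocyte and macrophage level of -0.08 were above those of D9 to D11.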

How the results depend on the processing

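Of 180 differences recomputed in each comparison (9 genes, 20 alternatives), 178 kept their direction in Group M vs Group C, 180 in Group D vs Group M and 161 in Group D vs Group C. The count of the 9 genes called in Group M vs Group C, 1 with the settings used, was 0 with all 12 arrays, with the replicate block and with only the 2 compared groups in the model, and 2 by the criterion of the methods. In these fits 0.0329%, 0.00329%, 0.0757% and 2.33% of all probes were called, against 0.168% with the settings used. Leaving out each rat in turn gave 0 to 4 of the 9 genes, while 4 to 1778 of all 30367 probes were called (1778 without M6). In Group D vs Group M the count of 0 became 2 by the criterion of the methods, 1 (Pim1) with only the 21574 probes well above background and 0 to 4 with a rat left out, while 1 to 1978 of all probes were called (1978 without M6). The criterion of the methods called 2.65% of all probes there, and limma called 0.742% of the 21574. Of the pathway genes, 0 with the settings used, 11 were called in Group M vs Group C by the criterion of the methods, 1 (Timp1) with normexp and 0 to 18 with a rat left out. In Group D vs Group M they were 7 by the criterion of the methods, 1 with normexp (Timp1), 1 with outlier spots kept (Osmr), 3 with only probes well above background (Il5, Osmr and Timp1) and 0 to 22 with a rat left out. In Group D vs Group C both counts were 0 under each alternative. The cause of these changes was not tested. The labels do not say whether rats with the same replicate number were paired, and these values cannot settle it. Deviations of rats with the same number correlated at -0.56 to 0.13. With the replicate block limma called 0 members and 1 probe in all in Group M vs Group C. Probes near background, as for Socs1, Il5, Il6, Il10, Il21, Csf2 and Osmr, limit the size of a difference.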
